A study of Mus musculus with 102 samples.

Results

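*Emx1*, *Emx2*, *Neurod2*, *Neurod6*, *Tbr1*, *Fezf2*, *Bcl11b* and *Prox1* encode 8 transcription factors known from cortical and hippocampal neurons, and their levels were followed over the adult mouse brain and spinal cord. The members were chosen by name, and 16 of the 34945 probe sets that name a single gene carry 1 of the 8 symbols. For each gene the probe set with the largest standard deviation (SD) over 48 regional means was used, and the others served as a check. The 8 genes stand among 18193 genes named by the 45037 probe sets. In GRCm38.p6 RefSeq places *Emx1* at chr6:85187931-85204463, *Emx2* at chr19:59458690-59465357, *Neurod2* at chr11:98325415-98329645, *Neurod6* at chr6:55677818-55681263. It places *Tbr1* at chr2:61802863-61814114, *Fezf2* at chr14:12338992-12346803, *Bcl11b* at chr12:107910403-108004145 and *Prox1* at chr1:190118035-190170827.

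RNA of 51 regions was measured on Affymetrix GeneChip arrays, with 2 arrays a region. All mice were Balb/c males aged 7 to 8 weeks, kept in a light/dark cycle or constant darkness, with no transgene or mutation named in the labels. Punches of 0.5 mm were collected at intervals of 4 hours over a day and pooled over mice and times before RNA extraction, and the entire collection was done again for the other replicate. Values are log2 levels after robust multi-array averaging (RMA), so a difference of 1 is a factor of 2, and levels of different probe sets cannot be set against each other. The 10 pallial regions formed 6 groups: the dentate gyrus (DG), the ventral subiculum (ventral S), the CA fields (CA1 and CA2/CA3), the amygdala (A anterior and A posterior), the piriform cortex (Pir) and the neocortex (retrosplenial cortex RS, Cx motor and Cx cingulate). The reference was the 38 other regions of the brain and spinal cord, while the retina, pituitary and pineal stayed outside every comparison.

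The pallium is the dorsal telencephalon, and its excitatory neurons use a set of transcription factors that largely differs from the set of the subpallium beneath it, from which the striatum arises. Homeobox factors such as *Emx1* and *Emx2* set up the dorsal field in the embryo, basic helix-loop-helix factors such as *Neurod2* and *Neurod6* mark young and mature glutamatergic neurons, and *Tbr1*, *Fezf2*, *Bcl11b* and *Prox1* separate classes of neurons from each other. Many of them remain expressed in the adult, which is where these levels were taken.

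The region labels were set against marker genes. *Dsp*, a desmosomal gene of dentate granule cells, had 11.37 in DG and between 5.06 and 5.95 in the other 9 pallial regions. Outside the pallium it had 8.22 in MD, a thalamic region, and ranked 4 of 48 there. The median of the 10 markers of pallial glutamatergic neurons lay 1.33 to 2.90 above its mean over 48 regions in the pallial regions, and at most 0.97 above it in the 38 others (OB posterior, in the olfactory bulb). The 5 markers of CA1 pyramidal cells were highest in CA1 (2.81 above the mean), with Cx cingulate (1.23) and ventral S (1.11) next. One of them, *Fibcd1*, had 10.48 in both CA1 and ventral S. The 7 markers of CA2 and CA3 were highest in CA2/CA3 (1.21), with DG next (0.87). The 5 subiculum markers did not single out ventral S (0.17), being highest in MPA, the medial preoptic area (2.09), and the 7 layer markers of the neocortex were higher in SPa ventral, part of the subparaventricular zone (1.00), than in RS (0.79), Cx cingulate (0.70) or Cx motor (0.39). CA2/CA3 had the highest level of the 9 choroid plexus markers (2.70 above the mean, against -0.46 to 0.32 in the other 9 pallial regions), including *Ttr* with 13.81 and *Kl* with 10.28. CA1 also had high *Ttr* (12.85, rank 3 of 48) and *Kl* (9.5, rank 2). RS had high *Ttr* (12.5, rank 5), but its *Kl* was 6.36 (rank 21). Oligodendrocyte markers ranged from -2.91 in A posterior to 0.93 in CA2/CA3, and the medians of the GABAergic, astrocyte, microglia, endothelial and leptomeningeal lists in the 10 regions lay between -0.90 and 1.04. The part of these cells in the results below was not tested.

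Most of the 8 factors were higher in the pallial groups than in the other regions. Against the mean of the 38 others, tested with limma at an adjusted p of 0.05, all 8 members passed in the neocortex (7 higher, 1 lower), where 40.9% of all probe sets did. In the CA fields 7 were higher and 1 lower (background 42.7%), and in DG all 8 were higher (34.3%). In ventral S 7 were higher and 1 lower (40.1%), in the amygdala 7 were higher and 1 lower (38.1%), and in Pir 6 were higher and 1 lower (40.0%). The median difference of the 8 was 2.44 in DG, 2.22 in the CA fields, 1.47 in ventral S, 1.33 in Pir, 1.17 in the neocortex and 0.80 in the amygdala, while that of all probe sets lay between -0.03 and 0.02. *Prox1* was the member that was lower in 5 of the groups, and *Fezf2* the one that did not pass in Pir. These 6 comparisons share the same 38 regions. *Bcl11b* differences from regions of the same sampling period were 1.96 in the CA fields and 1.79 in ventral S, against 2.88 and 2.71 from all 38, and *Prox1* in the CA fields no longer passed there (-0.23, against -0.64). *Prox1* in ventral S was -0.42 from regions of its period, against -0.82 from all 38, and with the *Prox1* probe set of highest mean the difference from all 38 was -0.26 and did not pass.

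**Figure D1:**
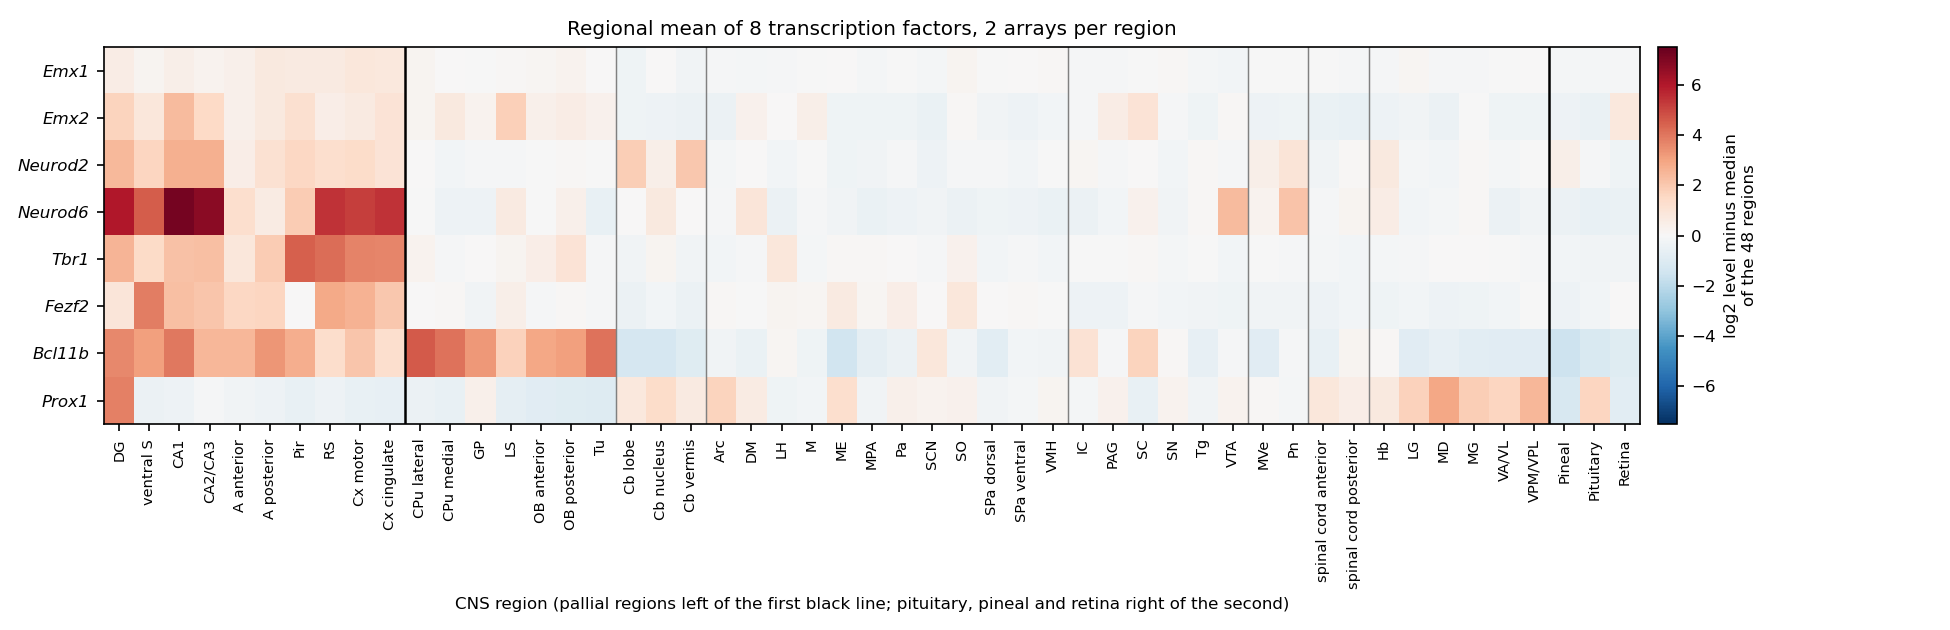
Mean log2 level of each factor in 51 regions (columns) minus its median over 48 regions, coloured from blue (below) to red (above). The 10 pallial regions stand left of the first black line, and grey lines part the divisions of the other 38. *Neurod6* reaches 11.98 in CA1, *Bcl11b* is high in the striatal regions CPu and Tu too, and *Prox1* stands out in DG and the thalamus.

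A region is a mixture of cells, so that fewer cells of a type and less RNA per cell cannot be told apart.

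*Emx1* is a homeobox gene of the dorsal telencephalon whose mRNA marks excitatory cortical lineages. It had the smallest range of the 8, from 7.52 in Cb lobe, a cerebellar region, to 8.65 in Cx motor. Its arrays gave 8.60 and 8.36 in RS, 8.51 and 8.78 in Cx motor, 8.65 and 8.58 in Cx cingulate, and 8.47 and 8.53 in Pir. The 6 neocortical arrays lay above all 76 arrays of the other regions, whose highest was 8.13, and so did both arrays of Pir and of DG (8.41 and 8.35). The neocortex was 0.79 ± 0.05 higher (limma, standard error SE, adjusted p = 2.1e-21), Pir 0.71 ± 0.08 and DG 0.59 ± 0.08.

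The remaining pallial regions had these *Emx1* values. CA1 had 8.26 and 8.24, CA2/CA3 8.14 and 8.04, A anterior 8.08 and 8.25, and ventral S 8.18 and 7.90. A posterior, with 8.51 and 8.53, was nearer to Pir than to A anterior. Ventral S at 0.25 ± 0.08 above the other regions (adjusted p = 0.010) passed, but 2 of the 38 had a higher mean. Without ventral S replicate 1 the difference was 0.11 and did not pass. With the further *Emx1* probe set it was 0.02 and did not pass. The CA fields were below the neocortex (-0.41 ± 0.07, adjusted p = 5.1e-06).

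*Emx2*, the other homeobox gene of the family, was higher in the CA fields and DG than in the neocortex. Its arrays gave 7.95 and 7.39 in CA1, 6.41 and 7.20 in CA2/CA3, and 7.29 and 6.61 in DG. RS had 5.84 and 5.76, Cx motor 5.91 and 6.02, and Cx cingulate 6.56 and 6.08. The CA fields were 1.21 ± 0.12 above the neocortex (adjusted p = 6.7e-13) and DG 0.92 ± 0.15 above it (adjusted p = 1.1e-06). Ventral S differed from the neocortex by 0.09, which did not pass (95% interval -0.20 to 0.39). The CA fields thus lay above the neocortex in *Emx2* and below it in *Emx1*.

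The septum and the tectum carried *Emx2* as well. LS, the lateral septum, had 7.38 and 6.83 and ranked 2 of 48, behind CA1 and overlapping with DG. SC, the superior colliculus, had 6.39 and 6.25 and ranked 6. It was level with Cx cingulate (0.002 above it, with overlapping arrays) and above the means of Cx motor and RS. Pir had 6.25 and 6.73, ventral S 6.36 and 5.88, A posterior 6.01 and 6.02, and A anterior 5.79 and 5.59. Arrays of the same region differed by up to 0.79 (CA2/CA3).

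*Neurod2* and *Neurod6* (also called *Nex*) encode related basic helix-loop-helix activators that promote the differentiation of excitatory neurons and bind the E-box CANNTG, a palindromic site. The RefSeq promoter windows of the members were searched for it. The 250 bases before the start of both genes are shown because the pair peaked together in the hippocampus and came apart elsewhere. Capitals mark each CANNTG, read 5′ to 3′ on the minus strand of GRCm38.p6.
Neurod2 upstream, chr11:98329646-98329895: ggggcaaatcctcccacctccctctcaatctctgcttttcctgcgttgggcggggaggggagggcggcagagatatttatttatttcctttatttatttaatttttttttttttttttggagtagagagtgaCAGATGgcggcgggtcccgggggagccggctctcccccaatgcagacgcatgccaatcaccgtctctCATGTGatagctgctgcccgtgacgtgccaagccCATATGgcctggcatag
Neurod6 upstream, chr6:55681264-55681513: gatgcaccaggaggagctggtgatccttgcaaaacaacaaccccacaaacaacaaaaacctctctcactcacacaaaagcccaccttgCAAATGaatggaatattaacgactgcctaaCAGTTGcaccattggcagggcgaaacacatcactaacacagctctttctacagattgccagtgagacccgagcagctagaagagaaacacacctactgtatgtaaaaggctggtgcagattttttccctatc
The window of *Neurod2* held 3 sites, 1 of them CAGATG, and that of *Neurod6* held 2. Of the other windows, the one at the upstream start of *Prox1* held 2, those of *Emx1* and *Tbr1* held 1, and those of *Emx2*, *Fezf2*, *Bcl11b* and the other start of *Prox1* held 0. At least 1 CANNTG was present in 72.3% of all 32851 mouse windows of 300 bases, 3 or more in 17.6%, and CAGATG or its complement CATCTG in 17.2%.

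*Neurod2* reached its highest levels in the hippocampus. The arrays gave 11.65 and 11.65 in CA1, 11.48 and 11.77 in CA2/CA3, and 11.40 and 11.45 in DG, above all 76 arrays of the other regions. The CA fields were 1.45 ± 0.10 above the neocortex (adjusted p = 1.2e-18), where RS had 10.23 and 10.24, Cx motor 10.20 and 10.46, and Cx cingulate 9.82 and 10.21. DG did not differ beyond the threshold from the CA fields (-0.22, 95% interval -0.48 to 0.05).

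The cerebellar cortex was the next site of *Neurod2*. Cb vermis had 11.07 and 10.91 and Cb lobe 10.80 and 10.85, above ventral S (10.65 and 10.53), Pir (10.44 and 10.57) and every neocortical array. Pn, the pontine nuclei, had 9.83 and 10.04 and Hb, the habenula, 9.85 and 9.51. A anterior, with 9.55 and 9.37, was below A posterior, with 10.23 and 9.96.

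*Neurod6* had the widest range of the 8, from 4.26 in Tu to 11.98 in CA1, and an SD over regions (2.15) larger than that of 99.98% of all probe sets. CA1 had 11.99 and 11.98, CA2/CA3 11.38 and 11.74, and DG 10.95 and 10.61. The neocortical arrays lay between 9.83 and 10.34, and ventral S had 9.03 and 9.64. These 7 regions were above all others, and a step of 2.15 parted ventral S from the next region. The CA fields were 6.93 ± 0.20 higher than the other regions (adjusted p = 3.5e-36) and DG 5.94 ± 0.28.

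Unlike *Neurod2*, *Neurod6* was low in the remaining pallium. Pir had 6.23 and 7.19, A anterior 7.21 and 4.92, and A posterior 5.98 and 4.81, so that its arrays within a region differed by up to 2.29. Pir was below the neocortex (-3.45 ± 0.31, adjusted p = 4.6e-13), and so was the amygdala (-4.43 ± 0.25, adjusted p = 1.2e-21). The amygdala was 0.89 ± 0.20 above the 38 other regions, and without A anterior replicate 1 this was 0.32 and did not pass. With A posterior alone it was 0.56 and did not pass.

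Both regions that followed ventral S lay outside the telencephalon. VTA, the ventral tegmental area, had 6.94 and 7.44 of *Neurod6*, and Pn 6.70 and 7.21. In VTA, *Th* and *Slc6a3*, markers of dopamine neurons, had 12.39 and 12.43, and *Slc17a7*, the vesicular glutamate transporter of pallial neurons, had 6.81 and ranked 33 of 48. In Pn, *Slc17a7* had 9.67. Cb vermis and Cb lobe, high in *Neurod2*, had *Neurod6* means of 4.83 and 4.85. Over 48 regional means the pair had a Pearson r of 0.80, a description of points that come from the same arrays.

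**Figure D2:**
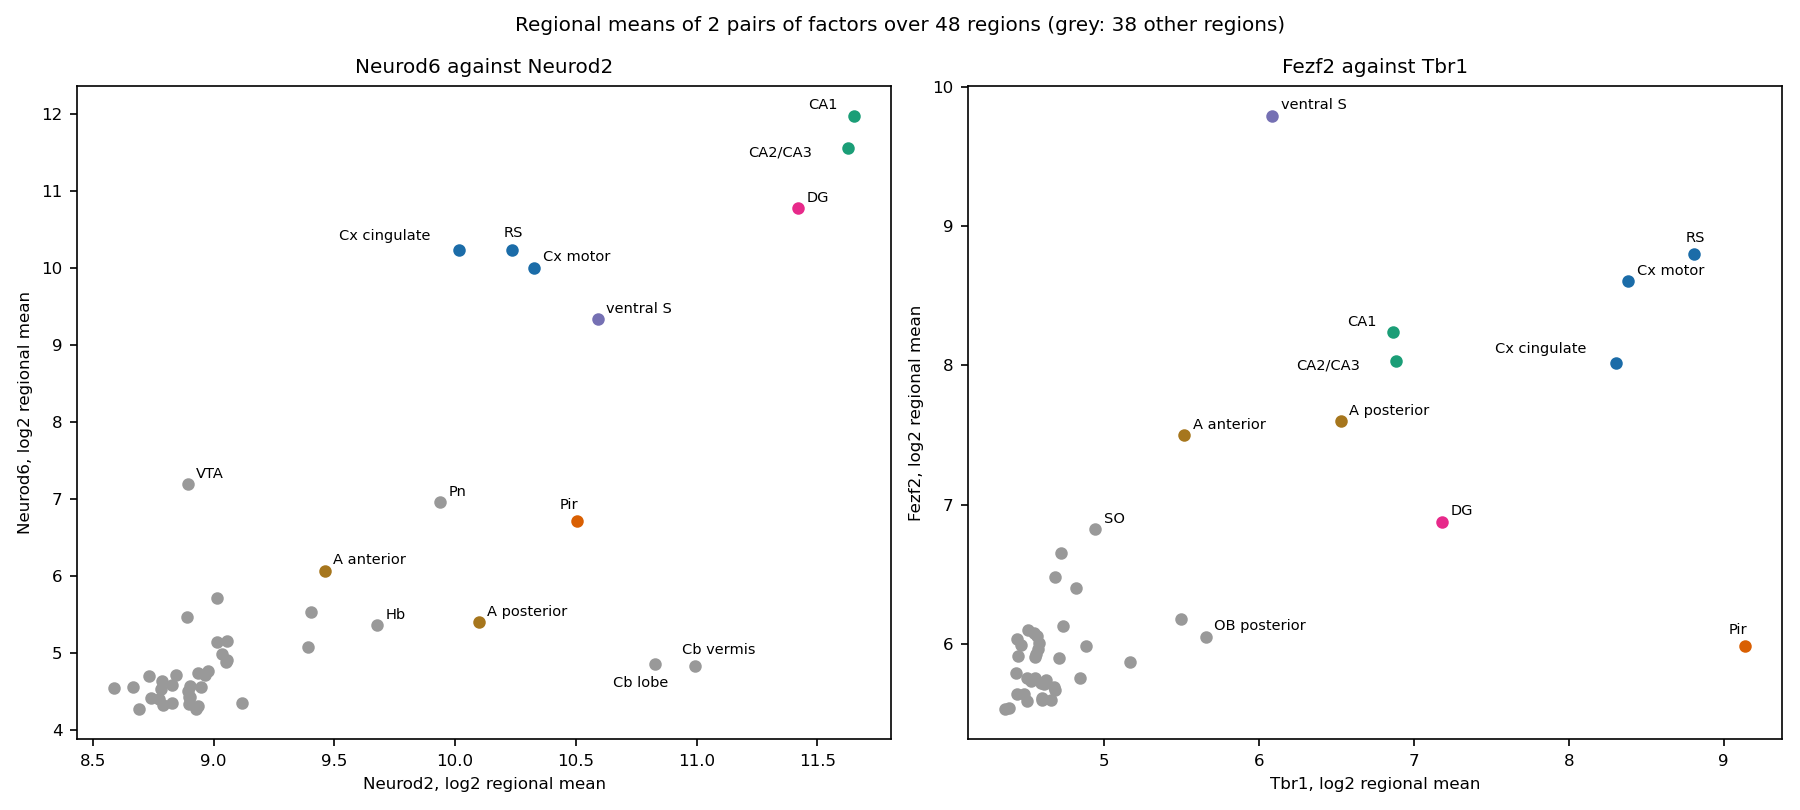
Regional means (log2) of *Neurod6* against *Neurod2* (left) and of *Fezf2* against *Tbr1* (right) in 48 regions, coloured by pallial group, with the 38 other regions in grey. Cb vermis and Cb lobe have *Neurod2* without *Neurod6*, and Pir and ventral S lie at opposite corners of the right panel.

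*Tbr1*, a T-box factor of early-born deep-layer neurons, was highest in the piriform cortex and the neocortex. Pir had 8.99 and 9.28, RS 8.97 and 8.65, Cx motor 7.65 and 9.12, and Cx cingulate 8.24 and 8.36. The hippocampus followed, with 6.95 and 7.41 in DG, 6.62 and 7.14 in CA2/CA3, and 6.58 and 7.15 in CA1. A gap of 1.12 lay between Cx cingulate and DG, and 9 of the 10 pallial regions exceeded every other region.

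Within the pallium *Tbr1* differed more than any other member between Pir and the amygdala. The amygdala was below Pir (-3.12 ± 0.18, adjusted p = 1.3e-20), with 5.62 and 5.41 in A anterior and 6.53 and 6.53 in A posterior. The CA fields were below the neocortex (-1.63 ± 0.13, adjusted p = 1.1e-15). Ventral S, with 6.39 and 5.78, was lower than the neocortex too (-2.41 ± 0.17, adjusted p = 7.7e-18). Outside the 10 regions OB posterior (5.77 and 5.55) and LH, the lateral hypothalamus (5.57 and 5.43), were highest, and the median array of the 38 had 4.61.

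*Fezf2*, a zinc finger gene that directs neurons of deep layers to subcortical targets, was highest in ventral S, with 10.22 and 9.36. RS had 8.87 and 8.72, Cx motor 8.52 and 8.70, and Cx cingulate 8.11 and 7.92. CA1 had 8.59 and 7.88 and CA2/CA3 7.84 and 8.22. Ventral S was thus 1.32 ± 0.15 above the neocortex (adjusted p = 7.1e-10) and 1.66 ± 0.16 above the CA fields (adjusted p = 3.8e-12).

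In Pir *Fezf2* was at the level of the non-pallial regions. Its arrays had 5.95 and 6.02, 13 of the 38 other regions had a higher mean, and the difference of 0.08 ± 0.14 from them did not pass (adjusted p = 0.68, 95% interval -0.19 to 0.35). Pir was below the neocortex (-2.49 ± 0.15, adjusted p = 2.1e-19), whereas *Tbr1* was 0.64 ± 0.17 above it there (adjusted p = 0.0026). Without Pir replicate 2 the *Tbr1* difference was 0.49 and did not pass. The amygdala had intermediate *Fezf2*, with 7.42 and 7.58 in A anterior and 8.13 and 7.08 in A posterior, and was 1.57 ± 0.16 above Pir (adjusted p = 5.8e-11). DG, with 6.93 and 6.83, was the lowest hippocampal region and was below the CA fields (-1.25 ± 0.16, adjusted p = 1.5e-08). The supraoptic nucleus SO (6.86 and 6.79), the median eminence ME (6.67 and 6.63) and the paraventricular nucleus Pa (6.48 and 6.49) were among the highest regions outside the pallium.

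*Bcl11b*, which encodes the zinc finger protein CTIP2 of corticospinal, hippocampal and striatal neurons, peaked in the striatum. CPu lateral, in the caudate putamen, had 11.98 and 12.54, CPu medial 11.54 and 11.97, and Tu, the olfactory tubercle, 11.67 and 11.83. These regions were 2.70 ± 0.11 above the neocortex (adjusted p = 6.7e-30), which comes to 6.51-fold. *Bcl11b* was the 1 member of 8 that was higher in the striatum, against 6 that were lower and 1 that did not pass (background 29.7%).

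In the hippocampus *Bcl11b* was also high. CA1 had 11.58 and 11.63, DG 11.26 and 11.21, and ventral S 10.74 and 10.68. CA2/CA3 had 10.15 and 10.17, so that CA1 was 1.45 ± 0.18 higher (adjusted p = 1.1e-08). A posterior had 10.87 and 11.07, Pir 10.47 and 10.33, and A anterior 10.23 and 10.04.

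The neocortex had the lowest *Bcl11b* of the 6 groups. RS had 9.04 and 8.95, Cx motor 9.83 and 9.70, and Cx cingulate 8.91 and 8.89. DG was 2.02 ± 0.15 above the neocortex (adjusted p = 5.3e-17), the CA fields 1.66 ± 0.12, ventral S 1.49 ± 0.15, the amygdala 1.33 ± 0.12 and Pir 1.18 ± 0.15. Against the other regions the neocortex was 1.22 higher, and against those outside the telencephalon alone 1.91 higher. Among the other regions GP, the globus pallidus (10.86 and 11.01), OB posterior (10.71 and 10.71) and OB anterior (10.53 and 10.54) came next to the striatum. In GP *Drd1* and *Ppp1r1b*, markers of striatal projection neurons, had 10.97 and 11.79 and ranked 4 of 48. In Pir *Drd1* had 8.74 (rank 6) and *Ppp1r1b* 10.56 (rank 5). Of 8 striatal markers 6 were higher and 0 lower in Pir than in the neocortex (median 0.72). In the amygdala 4 were higher and 0 lower (0.29), while in DG 0 were higher and 4 lower (-0.27). The part of striatal RNA in the *Bcl11b* of GP, Pir and the amygdala was not tested.

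*Prox1*, a homeobox gene that dentate granule cells need to keep their identity, marked DG among the pallial regions. DG had 9.93 and 10.03, while the arrays of the other 9 pallial regions lay between 5.52 and 6.35. DG was 4.00 ± 0.19 above the CA fields (adjusted p = 2.6e-24), which comes to 16.0-fold, and 4.27 ± 0.18 above the neocortex (adjusted p = 3.3e-27). No other member differed by as much between these groups.

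The thalamus followed DG in *Prox1*. MD, the mediodorsal nucleus, had 9.10 and 9.10, the ventral posterior nuclei VPM/VPL 8.60 and 8.83, the geniculate nuclei MG 7.92 and 8.27 and LG 8.07 and 7.79, and the ventral nuclei VA/VL 7.65 and 8.02. In MD the dentate marker *Dsp* had 8.22, while the median of the 7 dentate granule markers was -0.24 from its mean over 48 regions. The part of dentate RNA in the *Prox1* of MD was not tested. Arc, the arcuate nucleus of the hypothalamus, had 7.79 and 7.98, and Cb nucleus 7.30 and 7.87. Outside DG the pallial groups differed from the 38 other regions, which hold these thalamic nuclei, by -0.95 (Pir) to -0.64 (CA fields). The median array of the 38 had 6.44.

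**Figure D3:**
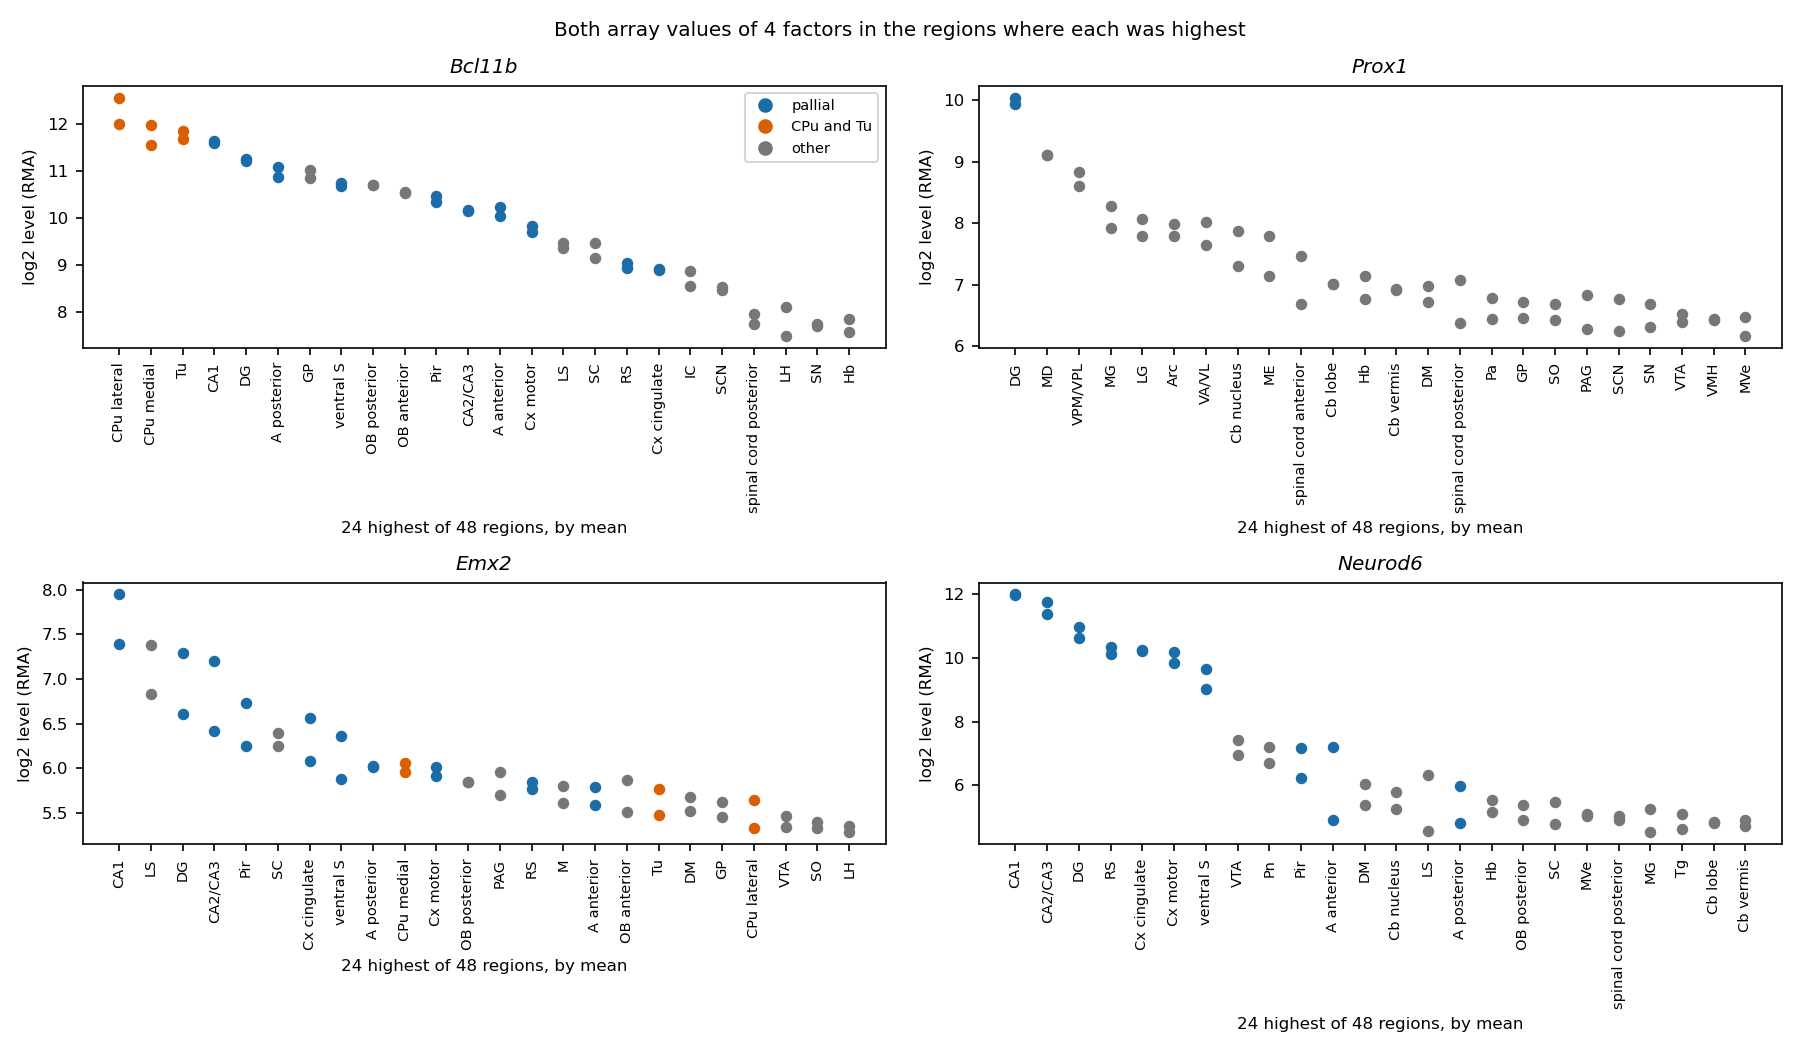
Both array values (points, log2 level) of *Bcl11b*, *Prox1*, *Emx2* and *Neurod6* in the 24 regions with the highest mean of each, with pallial regions in blue, CPu and Tu in orange and other regions in grey. *Bcl11b* is led by CPu lateral (12.26), *Prox1* by DG (9.98) and then MD (9.10), and *Emx2* by CA1 (7.67) and LS (7.10).

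**Figure D4:**
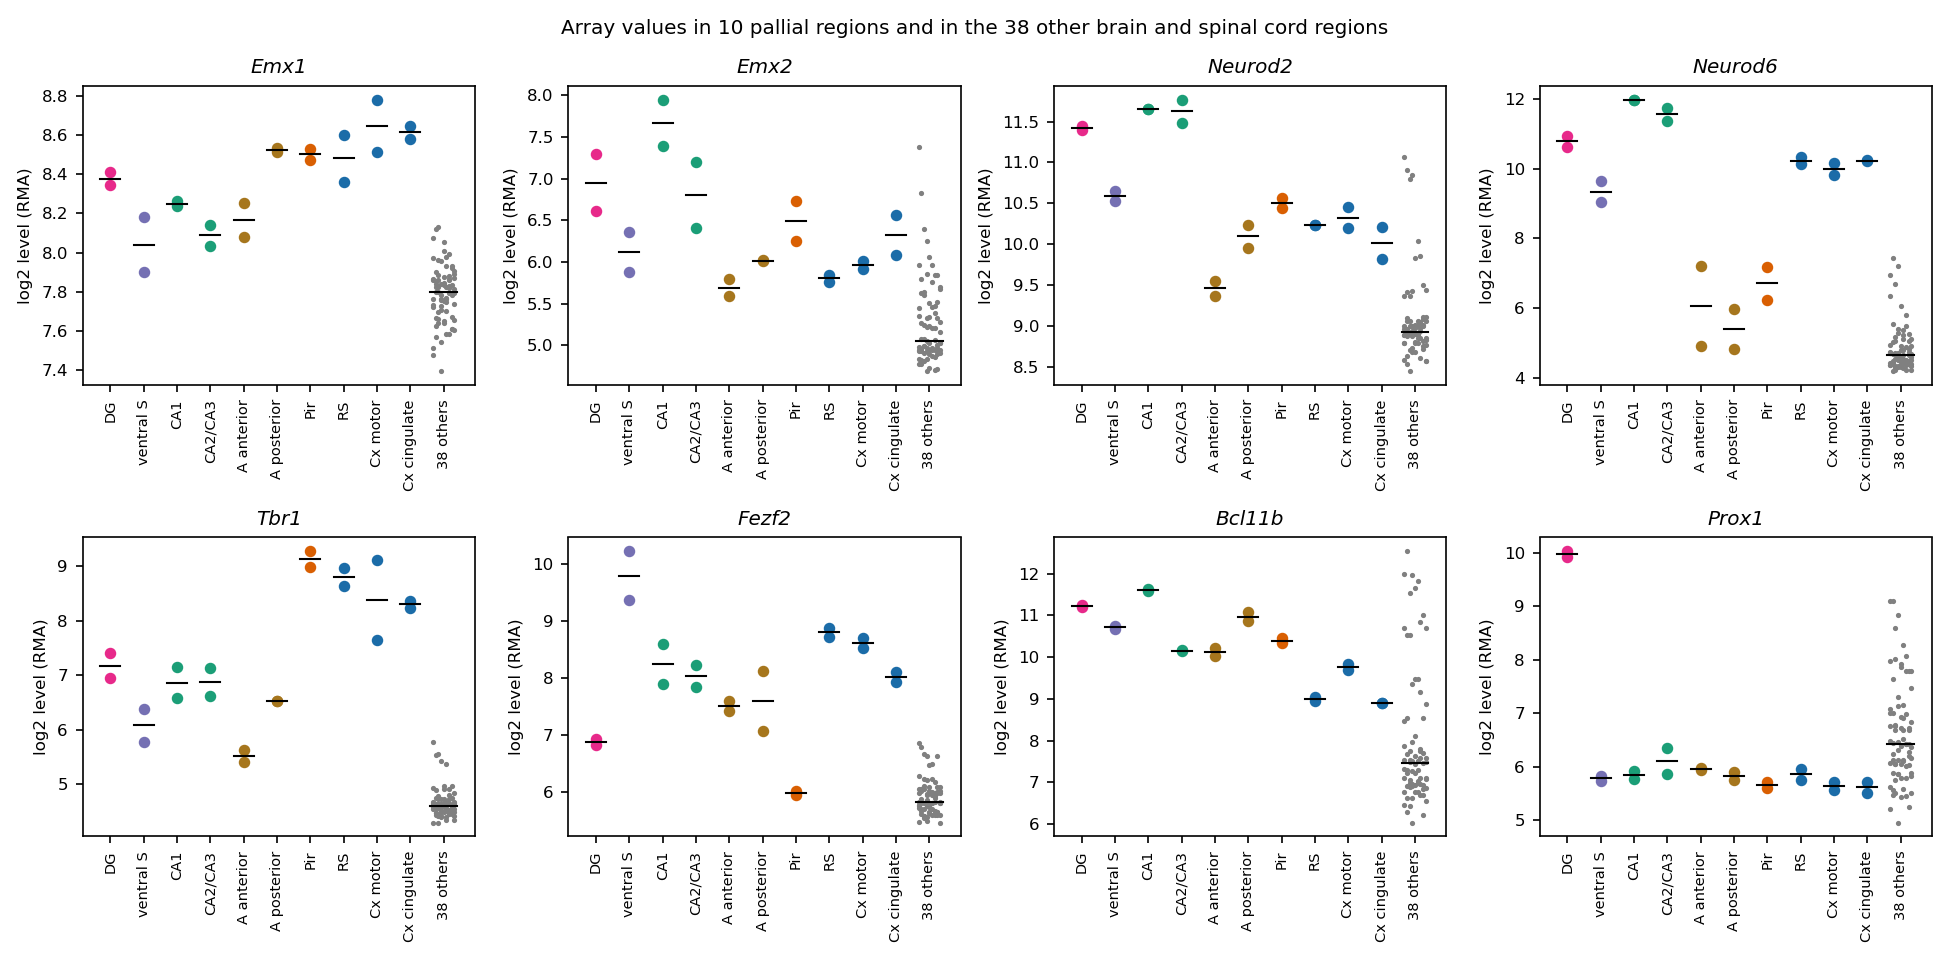
Log2 level of each factor on every array of the 10 pallial regions (coloured points, bars for the means) and of the 38 other regions (grey, bar for the median). *Prox1* is apart in DG only, *Fezf2* is low in Pir (5.98), and *Tbr1* arrays of Cx motor lie far apart (7.65 and 9.12).

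The groups were then compared with each other. Within the hippocampus 3 of 8 members passed between DG and the CA fields (background 27.1%), *Prox1* higher and *Fezf2* and *Neurod6* lower. *Neurod6* was lower in DG (-0.99 ± 0.33, adjusted p = 0.021) and did not pass without CA2/CA3 replicate 2 (-0.90) or DG replicate 2 (-0.82). *Emx2*, *Neurod2*, *Tbr1*, *Emx1* and *Bcl11b* did not pass, with differences from -0.29 to 0.35, although *Emx2* passed without CA1 replicate 2 (-0.43), CA2/CA3 replicate 1 (-0.48) or DG replicate 1 (-0.63). DG was sampled in another period than the CA fields, so period and region cannot be told apart there.

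Between ventral S and the CA fields, which were sampled in the same period, 5 of 8 passed (background 33.5%). *Fezf2* was higher in ventral S, and 4 factors were lower. The differences were -2.43 ± 0.33 for *Neurod6* (adjusted p = 4.6e-08), -1.12 ± 0.16 for *Emx2*, -1.05 ± 0.13 for *Neurod2* and -0.79 ± 0.18 for *Tbr1*. The *Tbr1* difference was -0.49 without ventral S replicate 2 and did not pass. *Bcl11b* (-0.17) did not pass, but it did against CA1 alone (-0.89). Its further probe sets gave -0.69 and -0.76, which passed, and -0.35, which did not. *Emx1* (-0.13) did not pass, while its further probe set did (-0.43). CA1 and CA2/CA3, also of that period, differed in 2 of 8 (background 17.5%). *Bcl11b* was higher in CA1, and so was *Emx2* by 0.86 ± 0.18 (adjusted p = 0.00031), which did not pass without CA1 replicate 1 (0.58) or CA2/CA3 replicate 1 (0.47). For *Neurod2* the difference of CA1 from CA2/CA3 was 0.03 (95% interval -0.28 to 0.33) and for *Tbr1* -0.02 (-0.43 to 0.39).

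The hippocampal groups were also compared with the neocortex. Between the CA fields and the neocortex 7 of 8 passed (background 32.6%), with *Bcl11b*, *Neurod6*, *Neurod2* and *Emx2* higher and *Tbr1*, *Emx1* and *Fezf2* lower. *Fezf2*, at -0.34 ± 0.12 (adjusted p = 0.026), did not pass when RS replicate 1 (-0.32), Cx motor replicate 2 (-0.31), Cx cingulate replicate 1 (-0.31), CA1 replicate 2 (-0.17) or CA2/CA3 replicate 1 (-0.25) was left out. Between DG and the neocortex 6 passed (background 22.9%), *Prox1*, *Bcl11b*, *Neurod2* and *Emx2* higher and *Fezf2* and *Tbr1* lower. *Neurod6* was 0.63 higher there and did not pass (95% interval -0.01 to 1.26). Against RS alone, sampled in the same period as DG, the calls were the same, with *Fezf2* at -1.92 and *Prox1* at 4.12. *Emx1*, lower in DG by -0.20 and not past the threshold, passed without Cx motor replicate 1 (-0.25). Its further probe set passed as well (-0.315).

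Between ventral S and the neocortex 6 of 8 passed (background 31.3%). *Bcl11b*, *Fezf2* and *Neurod2* (0.40 ± 0.12) were higher, and *Tbr1*, *Neurod6* (-0.82 ± 0.31, adjusted p = 0.040) and *Emx1* (-0.54 ± 0.09) were lower. *Neurod6* did not pass in 5 of the 8 fits that left out an array, among them that without ventral S replicate 1 (-0.51), nor did *Neurod2* in that one (0.33). The further probe sets of *Neurod2* (0.19 and -0.10) did not pass. With only the regions compared in the fit, the chosen one did not either (limma, adjusted p = 0.052). The CA fields and ventral S share no sampling period with the neocortex, nor does Pir, and period and region cannot be told apart in those comparisons.

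Pir and the neocortex differed in 5 of 8 (background 26.7%). *Bcl11b*, *Tbr1* and *Emx2* (0.46 ± 0.15, adjusted p = 0.015) were higher in Pir, and *Neurod6* and *Fezf2* were lower. *Emx2* did not pass without Pir replicate 2 (0.22). *Neurod2*, at 0.31 (adjusted p = 0.054), passed without Cx motor replicate 2 (0.35) or Cx cingulate replicate 2 (0.38). *Emx1*, at -0.08, did not pass, while its further probe set did (-0.39). Between the amygdala and the neocortex 6 passed (background 20.9%), *Bcl11b* higher and *Neurod6*, *Tbr1*, *Fezf2* (-0.92 ± 0.12), *Neurod2* (-0.41 ± 0.10) and *Emx1* (-0.24 ± 0.07) lower. *Emx1* did not pass without RS replicate 1 (-0.20), Cx motor replicate 2 (-0.19) or A anterior replicate 1 (-0.19). With A posterior alone for the amygdala, neither *Neurod2* (-0.10, adjusted p = 0.63) nor *Emx1* (-0.06, adjusted p = 0.71) passed. Between the amygdala and Pir 5 passed (background 20.1%), *Fezf2* higher and *Tbr1*, *Neurod6*, *Neurod2* and *Emx2* lower. *Neurod6* (-0.98) did not pass without Pir replicate 2 (-0.50), A anterior replicate 2 (-0.41) or A posterior replicate 2 (-0.69), and *Emx2* (-0.64) did not without Pir replicate 2 (-0.40). With A posterior alone *Emx2* (-0.47) and *Neurod2* (-0.41) did not pass and *Bcl11b* (0.57) did, and with A anterior alone *Neurod6* (-0.65) did not and *Emx1* (-0.33) did. The amygdala and Pir were sampled in different periods, so period and region cannot be told apart here either.

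The striatum was set against the neocortex as the subpallial neighbour. *Neurod6* was lower in the striatum (-5.68 ± 0.22, adjusted p = 1.2e-29), and so were *Tbr1* (-3.84 ± 0.12), *Fezf2* (-2.49 ± 0.11), *Neurod2* (-1.30 ± 0.09) and *Emx1* (-0.66 ± 0.06). *Emx2*, also lower (-0.33 ± 0.10, adjusted p = 0.011), did not pass without Cx cingulate replicate 1 (-0.25), CPu lateral replicate 2 (-0.27) or Tu replicate 2 (-0.28).

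Regions inside the amygdala and inside the neocortex were compared too. A anterior and A posterior differed in 4 of 8 (background 8.34%), all lower in A anterior: *Tbr1* by -1.01 ± 0.20 (adjusted p = 0.00048), *Bcl11b* by -0.84 ± 0.18 (adjusted p = 0.0013), *Neurod2* by -0.64 ± 0.15 and *Emx1* by -0.35 ± 0.11. *Emx1* did not pass in any of the 4 fits without 1 array (-0.44 to -0.27), *Neurod2* not without A anterior replicate 2 (-0.55) or A posterior replicate 1 (-0.50), and *Bcl11b* not without A posterior replicate 2 (-0.73). *Neurod6*, 0.67 higher and not past the threshold, passed without A anterior replicate 2 (1.81). The further probe sets of *Neurod2* (-0.18 and -0.09) and of *Emx1* (-0.21) did not pass, and of the 3 of *Bcl11b* 1 passed (-0.75) and 2 did not (-0.37 and -0.19). Of 12 oligodendrocyte markers 8 were higher in A anterior (median 0.97), as were 3 of 7 GABAergic (0.61) and 3 of 8 striatal markers (0.23). Of 10 pallial glutamatergic markers 3 were lower (median -0.54). Over all probe sets 4.82% were higher and 3.52% lower in A anterior. The part of the marked cells in the differences was not tested.

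Among the neocortical regions, 0 of 8 passed between RS and the pair Cx motor and Cx cingulate (background 8.61%). At an unadjusted p of 0.05, 4 members did, namely *Fezf2* (0.49, adjusted p = 0.0503), *Tbr1* (0.47), *Emx2* (-0.34) and *Bcl11b* (-0.34), as did 9140 of the 45037 probe sets. Without Cx motor replicate 2 *Tbr1* (0.83) and *Fezf2* (0.53) passed. Further probe sets of *Prox1* gave 0.53, which passed, and 0.15, which did not. Those of *Bcl11b* gave -0.53, which passed, and -0.32 and -0.15, which did not. RS was sampled in another period than the pair, so period and region cannot be told apart. Cx motor and Cx cingulate differed in 1 of 8 (background 2.03%), *Bcl11b*, which was 0.86 ± 0.18 higher in Cx motor (adjusted p = 0.0028). The other 3 *Bcl11b* probe sets gave 0.32 to 0.42 and did not pass. Without Cx motor replicate 1, the lower array, *Tbr1* was 0.82 higher in Cx motor and passed.

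**Figure D5:**
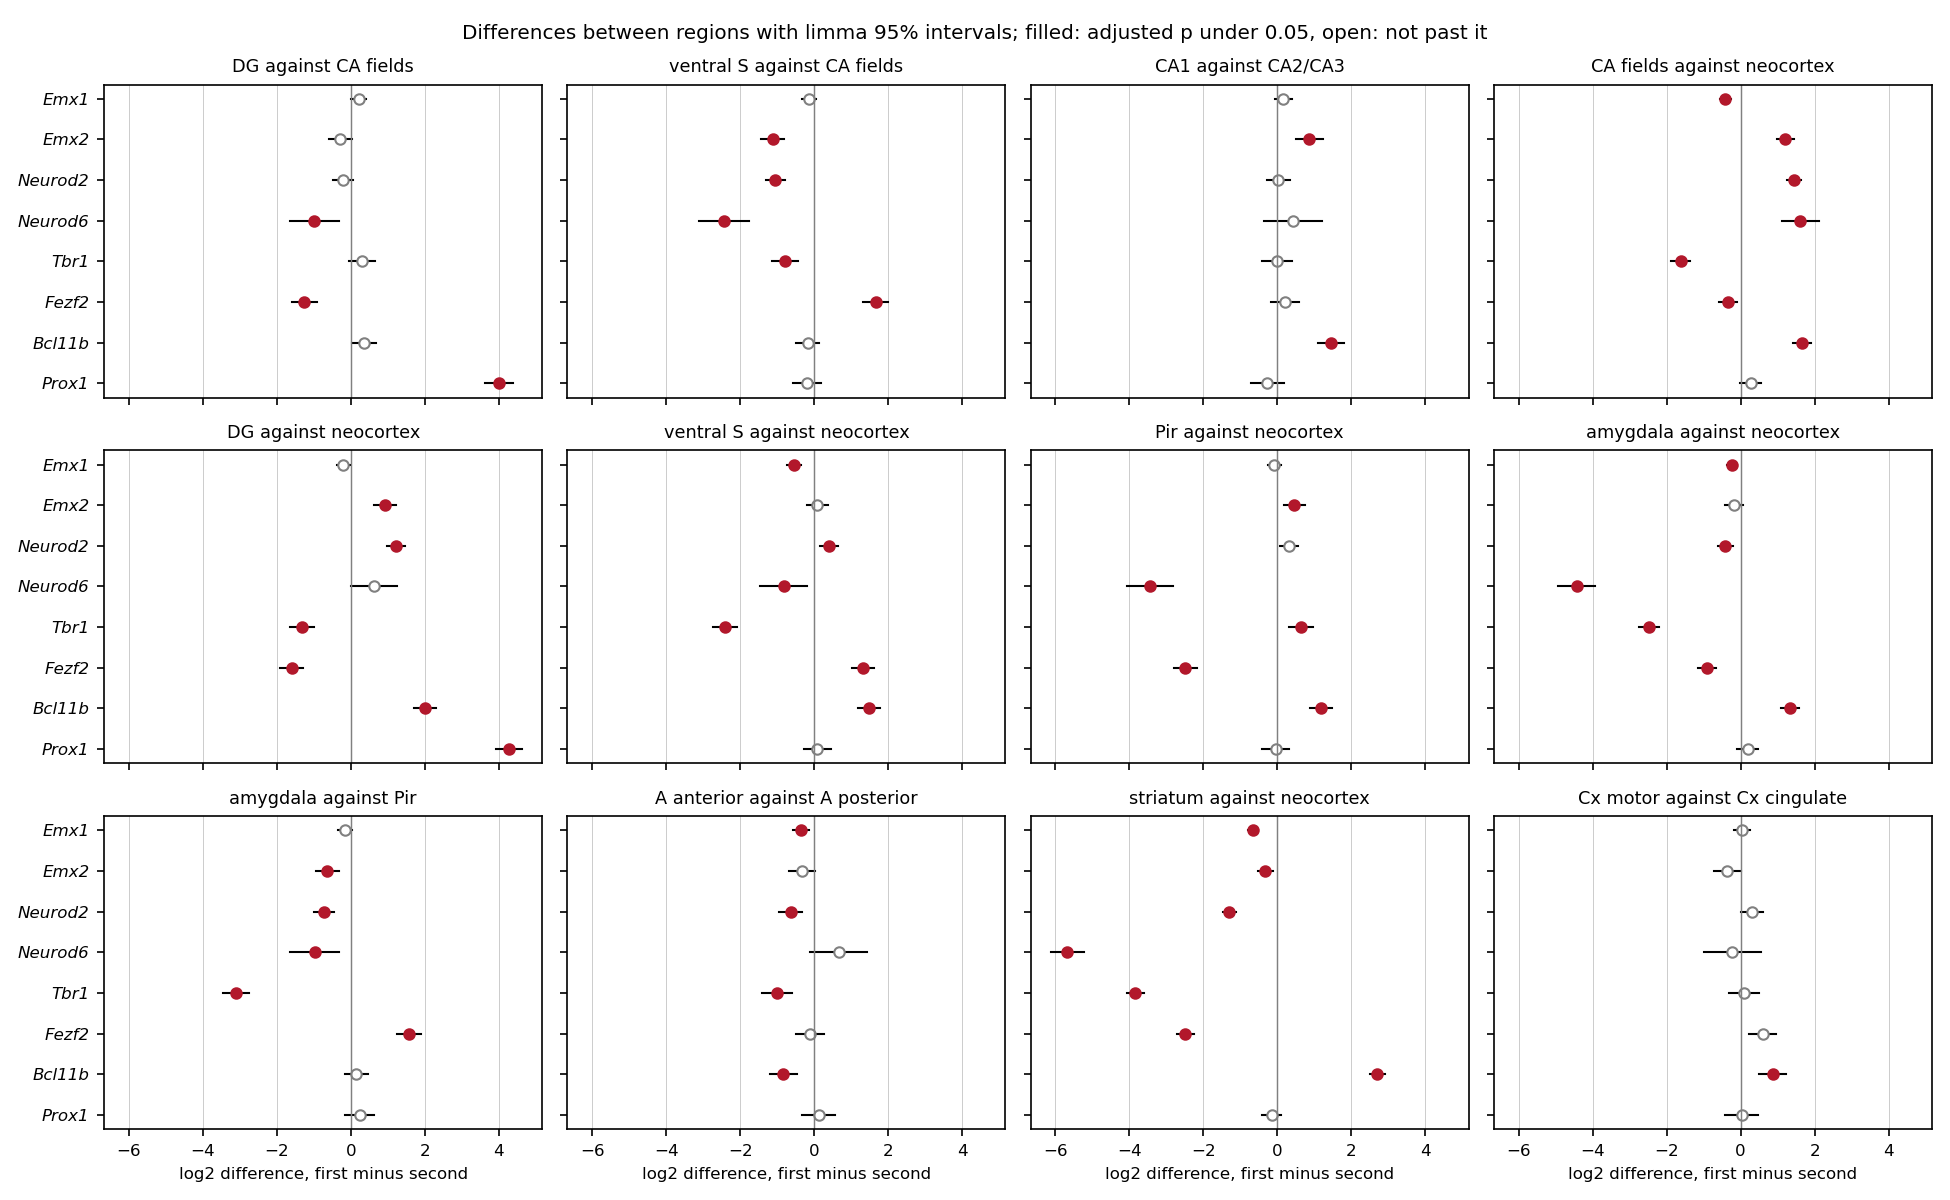
Difference of each factor between 2 groups (log2 level, the group named first minus the other) with limma's 95% interval, filled where the adjusted p passed 0.05. *Prox1* lies at 4.00 for DG against the CA fields, and *Neurod6* and *Tbr1* lie left of 0 for the amygdala against the neocortex (-4.43 and -2.48).

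In the order of the 48 regional means most neighbours overlapped. Of 47 neighbouring pairs, arrays did not overlap in 17 for *Bcl11b*, 11 for *Neurod6*, 7 for *Tbr1*, 6 for *Emx2*, 5 for *Fezf2*, 4 for *Neurod2*, 3 for *Prox1* and 2 for *Emx1*. Such counts were not made for all probe sets, so whether they are few or many for this array cannot be said. Arrays of the leading region lay above those of the next for *Prox1* (DG before MD, means 0.88 apart), *Fezf2* (ventral S before RS, 1.00) and *Neurod6* (CA1 before CA2/CA3, 0.42). They also did for *Emx2* (CA1 before LS, 0.57), *Tbr1* (Pir before RS, 0.33) and *Bcl11b* (CPu lateral before CPu medial, 0.51). In these last genes the nearest arrays almost touched, and a Cx motor array of *Tbr1* (9.12) exceeded the lower array of Pir (8.99). For *Emx1* (Cx motor and Cx cingulate) and *Neurod2* (CA1 and CA2/CA3) the leading pair overlapped.

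The 8 further probe sets were read in the same way. The 3 others of *Bcl11b* had a Pearson r of 0.98 to 0.99 with the chosen one over 48 regional means, the 2 others of *Prox1* 0.96, and the other of *Emx1* 0.86. Of *Neurod2*, one had 0.98, while the other was dim (mean 5.23, SD over regions 0.11) and had 0.46. In 152 pairs of a comparison and a further probe set, 121 calls were the same, 31 differed in whether the threshold was passed and 0 had the opposite direction. Of the 31, the dim *Neurod2* probe set gave 12. For *Prox1*, a further probe set put CA1 below CA2/CA3 (-0.95), a call that the chosen probe set (-0.27) did not make.

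Other factors of pallial neurons were counted on a list. Of 41 measured, 28 were higher and 10 lower in the neocortex than in the 38 other regions (median difference 0.75), led by *Mef2c* (3.48), *Lhx2* (2.80) and *Satb1* (2.42), and *Foxp2* was lower (-1.89). Of all probe sets 18.1% were higher and 22.8% lower there. In DG 22 were higher and 9 lower (median 0.40), in the CA fields 23 and 13 (0.48), in ventral S 21 and 11 (0.39), in Pir 19 and 8 (0.24), and in the amygdala 18 and 14 (0.08). Over all probe sets the shares in these 5 groups were 14.9% (DG) to 19.2% (Pir) higher and 19.5% (DG) to 24.2% (CA fields) lower. Between DG and the CA fields 6 were higher and 11 lower, against 11.8% and 15.3% of all probe sets. *Pou3f1*, a POU factor, was lower in DG (-3.22, with 6.82 against 10.04 in the CA fields), and *Zfpm2* was 1.60 higher.

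*Nr2f2*, a nuclear receptor also called COUP-TFII, was high in ventral S and the amygdala. It averaged 8.13 in ventral S and 5.61 in the CA fields, and 8.71 in the amygdala and 5.39 in the neocortex. *Lmo3* had 13.14 in Pir and 9.65 in the neocortex. Of 14 subpallial factors, 9 were higher and 2 lower in the striatum than in the neocortex (median 1.67), including *Rarb* (3.90) and *Isl1* (3.81), while *Dlx1* was lower. Of all probe sets 14.6% were higher and 15.2% lower in the striatum. In DG, 1 of the 14 was higher than in the 38 other regions and 11 were lower (median -0.61), with *Meis2* at 6.60 in DG and 8.88 in the others. In the other pallial groups 2 to 4 were higher and 6 to 9 lower. Against the shares of all probe sets given for these comparisons, the counts of higher subpallial factors in the pallial groups lay near the background. The counts of lower ones lay above it.

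The genes most like each member over the 48 regional means were listed by Pearson r, which describes points drawn from the same arrays. *Emx1* and *Tbr1* were each other's nearest (0.90). *Emx2* was followed most closely by *Cacng8* (0.86), *Arhgef25* (0.82) and *Arhgap39* (0.82), and *Neurod2* by *Gpr22* (0.92), *Zbtb18* (0.88) and *Prdm8* (0.85). *Neurod6* was nearest to *Ptgs2* (0.86), *Zbtb16* (0.86) and *Arhgef25* (0.84), and *Fezf2* to *Psrc1* (0.88), *Baiap2l1* (0.86) and *Vxn* (0.84). *Bcl11b* had *Egr3* (0.92), *Grasp* and *Ddn* (0.91 each), and *Prox1* had *Prox1os* (0.90), the antisense transcript of its locus, *Dsp* (0.79) and *Gss* (0.77). *Emx1* also had *Kalrn* (0.90) and *Kcnv1* (0.88), and *Tbr1* also *Slc30a3* (0.86) and *Dkkl1* (0.85). Among the members themselves r ranged from 0.90 (*Emx1* and *Tbr1*) to -0.43 (*Bcl11b* and *Prox1*).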

How the data were processed

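The deposited values are log2 expression levels that the authors made by RMA from Affymetrix GeneChip mouse arrays, 2 for each of 51 regions (version not given in the sources used here). Background correction, quantile normalization and probe summary in RMA pull arrays towards 1 distribution and compress low levels. The 64 control probe sets were left out, which leaves 45037. The array medians lay between 7.32 and 7.46, and with 2 arrays a region the number of arrays limits the precision. By GEO's annotation of the array, 34945 have a single gene symbol, 932 more than 1 and 9160 none, and RefSeq (GRCm38.p6) lists the gene ID of 34741.

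limma 3.58.1 (R 4.3.3) was fitted to 96 arrays of 48 regions, with a coefficient per region, regions weighted equally within each side, moderated variances (48 residual and 6.62 prior degrees of freedom), p-values adjusted by Benjamini-Hochberg across the 45037 and called under 0.05. Since each replicate is a separate pool of mice, p-values measure the spread between pools. Members and lists were chosen with earlier results of these data known, and the rule that takes the probe set of largest SD favours wide ranges. Named besides the members were, for each, the 3 genes of highest r, of the lists of 41 pallial and 14 subpallial factors up to 3 of largest difference in each direction, and marker genes of the label checks. Sampling periods (4) and days came from the study's sample table. In all, 35 pairs of regions share both sampling days, and the correlation of their arrays' deviations was above 0.1 in 18 of them. Of the pallial regions set against each other, Cx motor and Cx cingulate share both days (correlation 0.53), and so does A anterior with Cx motor (-0.46) and with Cx cingulate (-0.57). Tested on simulated shifts of 0.5, 1, 2 and 4 in 50 of 8000 probe sets each, the model recovered 74%, 98%, 100% and 100% for DG against the CA fields and 98%, 100%, 100% and 100% for the neocortex against other regions, with 6 and 12 false calls. The simulated noise was normal and independent between arrays, so correlations between arrays of shared days were not covered. Promoter windows run from 250 bases before to 50 after each RefSeq start. Python 3.11.15 and matplotlib 3.10.9 were used for tables and figures.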

Additional observations from a re-analysis of the deposited data

Results flagged for a closer look

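The retina, pituitary and pineal entered no comparison, and 3 members were high there. *Prox1* averaged 7.84 in the pituitary (8.16 and 7.52), above the upper quartile of the 38 other regions (6.99) and below 5 of them. *Emx2* averaged 6.09 in the retina (6.07 and 6.11, against an upper quartile of 5.52), where 2 of the 38 were higher. *Neurod2* averaged 9.39 in the pineal (9.26 and 9.54, against 9.05), where 5 were higher.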

How the results depend on the processing

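Of 2320 differences of single members under alternatives, 2234 kept their direction and side of the threshold, 61 lost the threshold, 25 gained it and 0 changed direction while called. Under the replicate block the number of members called was the same in all 19 comparisons (for example 8 for DG against other regions and 1 for Cx motor against Cx cingulate). With the replicate block and only Cx motor and Cx cingulate in the fit, an alternative chosen after seeing the data, 2 members passed, *Fezf2* besides *Bcl11b*. With only the regions compared in the fit, 3 members passed for Pir against neocortex, 2 for A anterior against A posterior and 0 for Cx motor against Cx cingulate, where no probe set passed. For RS against Cx motor and Cx cingulate 1 passed among probe sets that reach 7 in some region (*Fezf2*). With 51 regions in the fit 1 passed (*Fezf2*), as did 1 with the probe set of highest mean (*Prox1*). The probe set of highest mean gave 0 for Cx motor against Cx cingulate. The cause was not tested.

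Leaving out 1 array gave 3 to 6 members for Pir against neocortex, 3 to 5 for amygdala against Pir, 1 to 2 for CA1 against CA2/CA3, 2 to 3 for A anterior against A posterior, 0 to 2 for RS against Cx motor and Cx cingulate and 1 to 2 for Cx motor against Cx cingulate.

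Counts of all probe sets called moved by over 1.5 times in these settings. With only the regions compared in the fit, 6804 passed for DG against neocortex (10291 with all regions), 8285 for ventral S (14082), 6895 for Pir (12035), 5924 for the amygdala (9429), 628 for A anterior against A posterior (3758), 524 for RS against the other neocortex (3877) and 0 for Cx motor against Cx cingulate (915, and 5246 at an unadjusted p of 0.05). A anterior alone gave 10213 against other regions (17173), and A posterior alone 5719 against Pir (9037). Without 1 array the lowest counts were 11313 for Pir, 10260 for ventral S and 9982 for DG against other regions (18003, 18074 and 15467), 6517 and 8164 for DG and ventral S against CA fields (12217 and 15100), 6307, 7269 and 6369 for DG, ventral S and Pir against neocortex, 4712 for amygdala against Pir, 3141 for CA1 against CA2/CA3 (7864), 1320 for A anterior against A posterior, 1449 for RS and 531 for Cx motor.

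Each region has 2 arrays, so a difference between 2 regions rests on 4 values and on a spread pooled over 48 regions. Levels near the lower end of the RMA scale are compressed, and no detection calls were used.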
